A study of Mus musculus with 6 samples.

Results

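The genes described here are the histone genes of 4T1 cells, a mouse mammary carcinoma line of BALB/C origin. They were taken by name from the protein-coding rows of the deposited tables. Genes whose symbol starts with Hist1h, Hist2h, Hist3h or Hist4h form the clustered set, and 9 genes named singly form the variant set (H2afz, H2afv, H2afx, H2afy, H3f3a, H3f3b, H1f0, H1fx and Cenpa). The rule found 64 of 19179 genes, 55 clustered and 9 variant. By family, 5 clustered genes encode the linker histone H1, 12 encode H2A, 16 encode H2B, 10 encode H3 and 12 encode H4. The Hist1 cluster on chromosome 13 held 48 of them, Hist2 on chromosome 3 held 4, Hist3 on chromosome 11 held 2 and Hist4 on chromosome 6 held 1.

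The study seeded 4T1 at 1 cell per well of a 96-well plate and took clones of 2 kinds after 14 days. The labels name one kind breast cancer stem cell and the other breast cancer cell, shortened in the protocols to SC and NSC without a definition and without saying how a clone was assigned. They are called stem-labelled and other clones here, with 3 libraries each. Per the protocols, 10 clones of each kind were gathered at random, in 3 batches from 3 independent experiments. Medium was complete RPMI-1640, 200 µL per well in one text and 300 µL in another. No gene was altered and no agent was added in either group, as far as the labels say. They do not say whether a library holds 1 clone or a pool, so the p-values below measure the spread between these libraries and no more.

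Replication-dependent histones package newly made DNA, and their clustered genes are switched on together in S phase. Their messenger RNAs usually end in a short hairpin, the histone stem-loop, which is bound by the protein SLBP, in place of the poly(A) tail of other messages. Variant histones are made outside S phase as well, mostly from single genes with introns and polyadenylated transcripts, and each is placed in chromatin by its own chaperones. Messages without a poly(A) tail are recovered poorly by oligo(dT) selection. The labels give total RNA and a standard Illumina mRNA protocol, and they do not say how mRNA was selected.

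The hairpin could be read in the annotated transcripts. The 16-letter pattern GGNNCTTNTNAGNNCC, searched on the sense strand of GENCODE M21 transcripts, was found in 36 of the 53 clustered genes that had a transcript there. It was found in 1 of the 9 variant genes, H2afx, and in 0.621% of 21901 protein-coding genes. On the antisense strand, 0.379% of those genes held it. The stem-loops of the most abundant H4 gene, of the H4 gene with the largest change, of the H4 genes outside chromosome 13, of the H4 gene with a stem of its own (Hist1h4j), and of 1 gene from each other family show the stem types beside that of H2afx. Capitals mark the hairpin.
Hist1h4i: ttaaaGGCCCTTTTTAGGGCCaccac
Hist1h4f: tcaaaGGCCCTTTTCAGGGCCaccca
Hist2h4: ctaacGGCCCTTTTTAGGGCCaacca
Hist4h4: acaaaGGCCCTTTTCAGGGCCcacaa
Hist1h4j: ctaaaGGTCCTTTTCAGGACCaccac
Hist1h3c: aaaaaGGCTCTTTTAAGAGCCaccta
Hist1h2bj: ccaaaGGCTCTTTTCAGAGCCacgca
Hist1h2ae: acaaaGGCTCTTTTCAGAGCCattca
Hist1h1c: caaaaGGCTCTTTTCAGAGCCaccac
H2afx: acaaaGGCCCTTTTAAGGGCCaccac
The 36 hairpins took 8 forms. All 25 of the H1, H2A, H2B and H3 genes with a hairpin opened with GGCTC, and 10 of the 11 H4 genes with one opened with GGCCC, the exception being Hist1h4j. H2afx carried the GGCCC type. The 19 clustered genes without a match include Hist1h2bm and Hist1h2bh, which had no transcript to search. Of the 19, 13 have models shorter than 500 bases, these genes among them. In 15 genes the annotated transcript ended within 60 bases of the hairpin, and in 16 it ran on for more than 300 bases. Messages of the H2AX gene are known to occur in both a hairpin-ended and a polyadenylated form.

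Levels are given as RPKM, reads scaled to gene length and library total, in the order of replicates 1, 2 and 3. The 3 stem-labelled libraries held 21558159, 22838870 and 21196572 reads in genes, and the other libraries held 16830762, 15357608 and 15402338. Reads in genes were 0.658 to 0.757 of the total that the deposited unit implies in the stem-labelled libraries and 1.23 to 1.53 of it in the other libraries, so the unit does not scale the groups alike. Changes are therefore given on the deposited values and again after rescaling to the reads summed over genes, which moved the median change of all tested genes from 0.11 to 0.86 on the log2 scale. Gene length moved with the group too: among tested genes split into deciles by length, the median change was -1.17 in the first (57 to 1075 bases) and 0.71 in the last. All 6 epithelial markers on the list passed the low-value filter, summing to 920.4 to 1411 RPKM in stem-labelled and 2117 to 3617 RPKM in other clones, a sum carried by Krt8 and Krt18. They did not move alike: Cdh1 was higher in stem-labelled clones (2.04, adjusted p = 0.000149, limma), Krt18 (-1.79), Krt19 (-3.67) and Cldn4 (-4.36) were lower, and Epcam was 55.2 ± 4.78 RPKM in stem-labelled and 56.2 ± 2.51 in other clones (SD, n = 3). Summed fibroblast markers reached 1.68 to 3.38 against 0.396 to 1.01 RPKM, nearly all Pdgfra, with Col1a1, Col1a2 and Dcn near 0. Leukocyte markers reached 12.4 to 40.0 against 6.5 to 29.4 RPKM, nearly all Cd68, with Ptprc and Csf1r near 0. Endothelial markers summed to 0.0391 to 0.0988 against 0.0179 to 0.116 RPKM. The part of these differences in the results below was not tested, and the listed markers Col3a1, Lum, Adgre1, Cd3e, Cdh5 and Emcn were not analysed here. In bulk RNA of this kind, fewer cells of a type and less RNA per cell cannot be told apart.

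Clustered histone messages were low in all libraries and lower in the stem-labelled clones. Their summed level was 72.3, 70.3 and 35.8 RPKM in the stem-labelled libraries and 477.9, 283 and 532 RPKM in the others, a 7.25-fold lower mean with no overlap. The variants summed to 1578, 1685 and 1188 RPKM against 1095, 1281 and 1274 RPKM, and their groups overlapped. A ratio within a library does not depend on its scaling. The length trend does not cancel in such ratios, here or below, where the genes differ in length. Clustered models had a median of 480 bases and variant models 2287. With the length trend subtracted, the difference between the median changes of clustered and variant genes went from -1.59 to -0.32. Clustered over variant RPKM was 0.0458, 0.0417 and 0.0301 in stem-labelled clones and 0.437, 0.221 and 0.417 in other clones, which is 0.0392 ± 0.00813 against 0.358 ± 0.119 (SD, n = 3). As a share of reads in genes, clustered genes took 0.00638 ± 0.00135% against 0.0176 ± 0.00386%, and variants took 0.482 ± 0.0444% against 0.207 ± 0.0314% (SD, n = 3).

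Of the 55 clustered genes, 36 had at least 1 RPKM in at least 3 libraries and were tested with limma on log2(RPKM + 1). At an adjusted p under 0.05, 32 fell and 0 rose while 4 were not called, where 25.4% of all 10097 tested genes fell and 29.9% rose. The 36 changes ran from -3.66 to -0.13, so no tested clustered gene had a positive change on this scale. For 13 of the 36, only the other clones reached 1 RPKM, so those genes had to differ to be tested at all. Over all 55, without that filter, 33 fell and 1 rose (Hist2h2be), against 12.1% and 16.0% of all 19179 genes, and the median change was -1.34 against 0.02. All 3 stem-labelled libraries lay below all 3 others for 36 of the 55 and above them for 1, while 18 overlapped. The same separation held for 18.0% (below) and 26.7% (above) of all genes. After rescaling, 31 of the 36 fell and 0 rose, against 12.3% and 58.7% of all tested genes, so the direction of the set did not turn. Rescaled and without the filter, 26 of the 55 fell and 1 rose, against 6.03% and 34.9%. With limma-voom on the recovered reads, 32 of the 36 fell and 0 rose, against 28.4% and 25.8%.

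**Figure D1:**
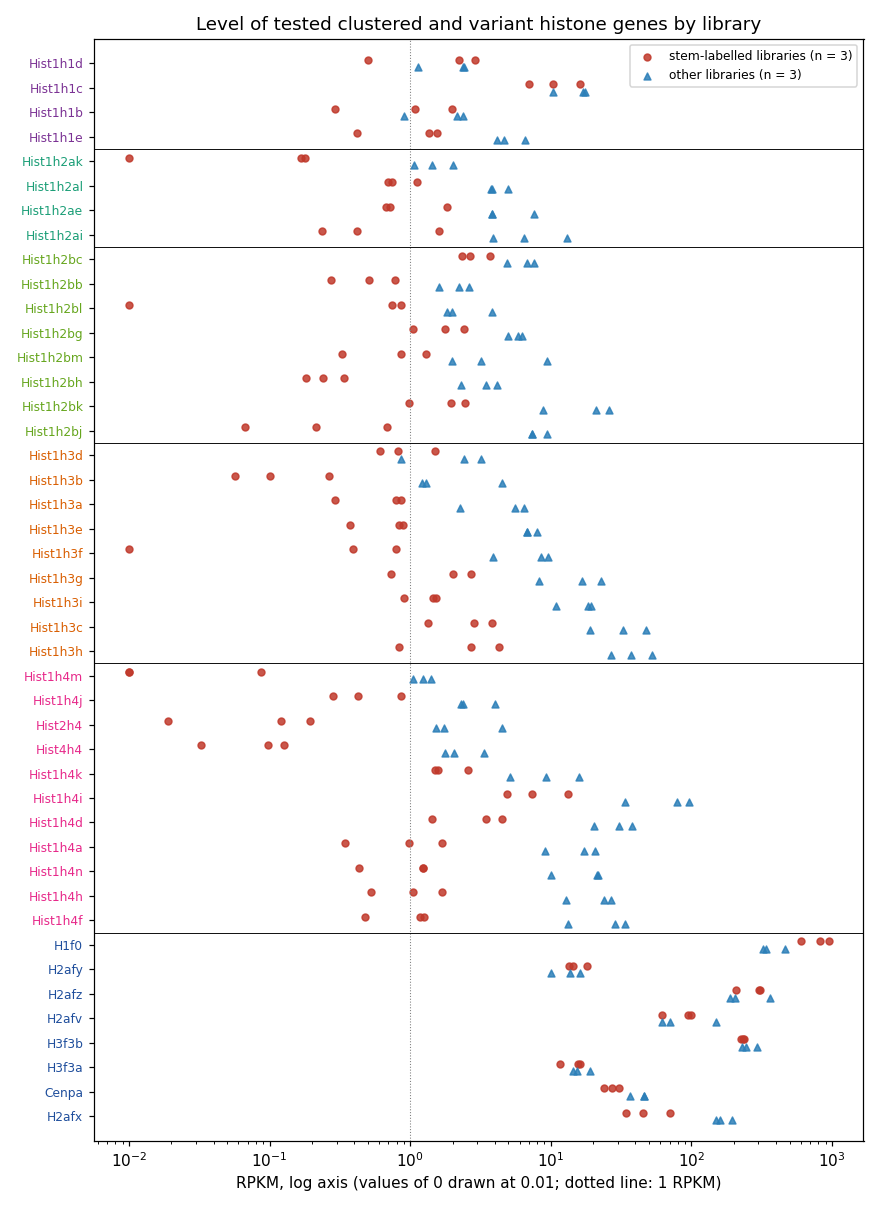
Level of each tested histone gene in every library, in RPKM on a log axis, with red circles for the 3 stem-labelled and blue triangles for the 3 other libraries and lines between families. The circles lie to the left of the triangles for every H2A, H2B, H3 and H4 gene shown except Hist1h3d, and the symbols mix for 3 of the 4 H1 genes and for 5 of the 8 variants.

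H4 is the core histone that pairs with H3. Its genes had the largest median change of the 5 clustered families, and the groups overlapped for 0 of the 12. The stem-labelled libraries were the lower side in all 12, where they were so for 18.0% of all genes. Summed H4 was 25.9, 19.8 and 9.90 RPKM in the stem-labelled libraries and 240.6, 124 and 238 RPKM in the others, a 10.8-fold lower mean. As a share of reads in genes, the mean was 5.61-fold lower. All 11 tested H4 genes fell, where 25.4% of all tested genes did, with a median of -2.87 on deposited and -1.98 on rescaled values. For 4 of the 11, only the other clones reached 1 RPKM, so those genes had to differ to be tested. Hist1h4i, at chr13:22040636-22041362, was the most abundant clustered gene in the other clones and came after Hist1h1c in the stem-labelled ones, by mean RPKM. Its level was 13.2, 7.3 and 4.87 RPKM in stem-labelled and 95.7, 33.8 and 79 RPKM in other clones, from 549 and 1713 reads. Every stem-labelled library was well below every other library. The log2 change was -2.87 ± 0.43 (SE; adjusted p = 0.000574, limma).

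Hist1h4f, at chr13:23551258-23551648, had the largest change of the 36. It measured 1.26, 1.18 and 0.477 RPKM in stem-labelled clones and 28.8, 13.4 and 33.5 RPKM in other clones, with a log2 change of -3.66 ± 0.34 (SE; adjusted p = 0.000117, limma). Hist1h4h was 1.04, 1.67 and 0.525 against 26.6, 12.9 and 23.7 RPKM, and Hist1h4n was 1.22, 1.23 and 0.433 against 21.7, 10.1 and 21.5 RPKM. In each of these, stem-labelled replicate 3 was the lowest library and other replicate 2 the lowest of its group. Hist1h4d gave 3.48, 4.53 and 1.42 against 30.3, 20.4 and 37.7 RPKM and Hist1h4a gave 1.69, 0.978 and 0.346 against 17.1, 9.09 and 20.6 RPKM. Their changes were -2.92 ± 0.34 and -3.04 ± 0.34. At a smaller size, Hist1h4k was 2.59, 1.58 and 1.49 against 5.11, 16 and 9.23 RPKM, with other replicate 2 the highest library there. Hist1h4j, which carries the divergent hairpin, was 0.862, 0.426 and 0.281 against 2.38, 2.28 and 3.98 RPKM (change -1.34 ± 0.23). Hist1h4m rested on 1 read in the stem-labelled clones and 17 in the others, and Hist1h4c, which was not tested, on 10 and 40.

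The 2 H4 genes outside chromosome 13 have long models and were lower as well. Hist4h4, at chr6:136801553-136804415 with a length of 2863 bases, was 0.0981, 0.127 and 0.0325 against 3.37, 1.77 and 2.05 RPKM, from 22 and 237 reads. Hist2h4, at chr3:96261682-96263311 and 1630 bases long, was 0.194, 0.121 and 0.0191 against 4.48, 1.73 and 1.52 RPKM, from 16 and 147 reads. The groups were far apart in both, and the changes were -1.62 ± 0.21 and -1.60 ± 0.28 (SE; adjusted p = 0.000310 and 0.00143, limma). In tested genes of the length of Hist4h4 (2426 to 3010 bases) the median change was -0.07. In those of the length of Hist2h4 (1075 to 1789 bases) it was -0.73, and 48.5% fell. Both were tested only through the other clones. Little of either sequence recurs elsewhere: 1.01% of the 50-base stretches of Hist2h4 and 8.14% of those of Hist4h4 occur in another gene.

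Clustered H3 genes encode the H3 that is built into chromatin during replication. They moved much as H4 did: summed H3 was 16.3, 12.5 and 5.26 RPKM in the stem-labelled libraries and 138, 80.3 and 166 RPKM in the others. The mean was 11.3-fold lower on this unit and 5.78-fold lower as a share of reads in genes. H4 over H3 within a library was 1.60, 1.58 and 1.88 in stem-labelled and 1.75, 1.54 and 1.44 in other clones, with the groups overlapping. Of the 9 tested H3 genes, 8 fell, where 25.4% of all tested genes and 61.1% of the shortest decile did. Their median was -2.54 on deposited and -1.83 on rescaled values. For 4 of the 9, only the other clones reached 1 RPKM. Of the rest, Hist1h3c alone had all 3 stem-labelled libraries there. Hist1h3h, at chr13:21717659-21718069, was 4.27, 2.73 and 0.831 RPKM in stem-labelled and 37, 27 and 52.2 RPKM in other clones. Its change was -3.54 ± 0.39 (SE; adjusted p = 0.000162, limma). Hist1h3c was 3.81, 2.83 and 1.33 against 32.6, 18.9 and 47.7 RPKM, and its change was -3.19 ± 0.36. Stem-labelled replicate 3 was the lowest library for both genes, and the groups were well apart.

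Levels of Hist1h3i were 1.45, 1.52 and 0.907 against 18.4, 10.9 and 19.3 RPKM, and those of Hist1h3g were 2.71, 2.01 and 0.727 against 22.8, 8.28 and 16.7 RPKM. Hist1h3f was 0.787, 0.389 and 0 against 8.51, 3.89 and 9.49 RPKM and Hist1h3e was 0.882, 0.828 and 0.371 against 8.03, 6.82 and 6.77 RPKM. These 4 genes had changes from -2.88 to -2.29 and no overlap. Hist1h3a was 0.789, 0.864 and 0.291 against 6.44, 2.26 and 5.58 RPKM, and Hist1h3b was 0.0566, 0.266 and 0.10 against 1.22, 1.3 and 4.49 RPKM. Both fell, by 1.74 and 1.42 on the log2 scale. Hist1h3d was the exception among H3 genes: it was 1.5, 0.824 and 0.61 against 2.4, 0.861 and 3.19 RPKM, the groups overlapped, and its change was -0.62 ± 0.31 (adjusted p = 0.115, limma). Other replicate 2 was the low library there, and without it the change was -0.96 (adjusted p = 0.0111). Hist2h3c2 was not tested, with 11 and 6 reads.

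Within a library, clustered H3 can be set beside H3.3, the replacement H3 encoded by H3f3a and H3f3b. Clustered H3 over summed H3f3a and H3f3b was 0.0674, 0.0502 and 0.0213 in stem-labelled and 0.448, 0.332 and 0.629 in other clones, a 10.1-fold lower mean. The replacement genes themselves did not separate the groups. H3f3b was 226, 233 and 235 RPKM in stem-labelled and 292, 228 and 244 RPKM in other clones, and H3f3a was 15.7, 16.2 and 11.6 against 15.3, 14.4 and 19.1 RPKM. Both overlapped, with changes of -0.13 ± 0.25 and -0.16 ± 0.22 (SE; adjusted p = 0.674 and 0.557, limma). After rescaling, both turned to positive changes, 0.81 and 0.72 (adjusted p = 0.0165 and 0.0129), as most genes did.

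H2B pairs with H2A at the outer part of the nucleosome. All 8 tested H2B genes fell, where 25.4% of all tested genes and 61.1% of the shortest decile did. Their median was -1.41 on deposited and -0.86 on rescaled values, where Hist1h2bc no longer passed. After rescaling, 12.3% of all tested genes fell. For 4 of the 8, only the other clones reached 1 RPKM. Hist1h2bm had 1 stem-labelled library there and Hist1h2bk had 2, fewer than the 3 that the filter asks for. Summed H2B was 12.7, 13.0 and 6.94 RPKM against 56.1, 42.0 and 68.4 RPKM. Hist1h2bk, at chr13:22035870-22036345, was 2.43, 1.94 and 0.979 RPKM in stem-labelled and 21, 8.78 and 26.1 RPKM in other clones, with a change of -2.73 ± 0.37 (SE; adjusted p = 0.000408, limma). Hist1h2bj, at chr13:22043214-22043676, was 0.683, 0.214 and 0.0671 against 9.42, 7.29 and 7.29 RPKM, from 13 and 128 reads, with a change of -2.79 ± 0.22 (adjusted p = 0.000116, limma). In both, the highest stem-labelled library was far under the lowest other one. Hist1h2bh was 0.181, 0.34 and 0.24 against 3.46, 4.14 and 2.3 RPKM and Hist1h2bg was 1.77, 2.42 and 1.04 against 4.93, 6.23 and 5.83 RPKM. Hist1h2bm was 1.29, 0.865 and 0.326 against 1.98, 3.16 and 9.38 RPKM. Its call was lost without stem-labelled replicate 3 (adjusted p = 0.0599), and in the fit with no filter (adjusted p = 0.0713). Other replicate 3 was its high library.

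Hist1h2bl, Hist1h2bb and Hist1h2bc had smaller changes, from -1.21 to -0.92. Levels were 0.737, 0.865 and 0 against 1.98, 3.8 and 1.82 RPKM for Hist1h2bl, 0.777, 0.51 and 0.275 against 2.23, 1.6 and 2.64 RPKM for Hist1h2bb, and 2.34, 3.72 and 2.66 against 6.73, 4.91 and 7.56 RPKM for Hist1h2bc. The groups did not overlap in any of the 3. The opposite direction was found in Hist2h2be, at chr3:96221119-96223738, which was 0.791, 0.642 and 0.782 RPKM in stem-labelled and 0.0961, 0.245 and 0.379 RPKM in other clones, from 176 and 21 reads. Every stem-labelled library was higher. It stayed under 1 RPKM throughout, and in the fit without a filter its change was 0.49 (adjusted p = 0.0206, limma). Its transcript holds no hairpin match, and 0% of its 50-base stretches occur in another gene. Hist1h2be had 28 and 57 reads, and its change without the filter was -0.37 (adjusted p = 0.0105, limma). In GENCODE M21 it overlaps an exon of Hist1h1e on the same strand, while the counted models of these genes do not overlap.

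H2A genes had few reads. Of 12, 4 were tested and all 4 fell, where 25.4% of all tested genes and 61.1% of the shortest decile did. Their median was -1.51 on deposited and -0.90 on rescaled values. For 1 of the 4, Hist1h2ak, only the other clones reached 1 RPKM. Hist1h2ai, Hist1h2ae and Hist1h2al each had 1 stem-labelled library there, so the 3 other libraries carried these past the filter too. Hist1h2ai was 1.61, 0.419 and 0.237 RPKM in stem-labelled and 6.41, 3.88 and 13.1 RPKM in other clones, with a change of -2.27 ± 0.40 (SE; adjusted p = 0.00134, limma). Hist1h2ae was 1.83, 0.717 and 0.675 against 3.83, 3.84 and 7.56 RPKM, and Hist1h2al was 1.11, 0.698 and 0.739 against 3.77, 3.83 and 4.99 RPKM. Hist1h2ak was 0.179, 0.168 and 0 against 1.07, 1.43 and 2.02 RPKM, from 4 and 20 reads. Without the filter 5 of the 12 fell, where 12.1% of all genes did. The groups were apart with the stem-labelled side lower in 5, where this held for 18.0% of all genes. The other 7 overlapped, with 0 to 22 reads in the 3 stem-labelled libraries together and 0 to 17 in the 3 others. Every H2A gene overlaps an exon of a gene on the opposite strand in GENCODE M21, and the strand setting of the counting is not given in the sources used here.

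Linker H1 binds the DNA between nucleosomes. Its genes had the smallest median change of the clustered families, -0.43 on deposited values, which rescaling turned to 0.24. Summed H1 was 11.9, 22.4 and 11.6 RPKM in stem-labelled and 23.8, 22.2 and 26.2 RPKM in other clones, and the groups overlapped. As a share of reads in genes, H1 took 0.00284 ± 0.00104% in stem-labelled and 0.00216 ± 0.000126% in other clones (SD, n = 3), again with overlap. Core genes (H2A, H2B, H3 and H4) over H1 within a library came to 5.08, 2.13 and 2.07 against 19.1, 11.8 and 19.3. H1 made up 16.5, 31.9 and 32.5% of summed clustered RPKM in stem-labelled clones and 4.98, 7.83 and 4.94% in other clones. Hist1h1c, which encodes H1.2, was 7.04, 16.2 and 10.4 against 17.5, 10.4 and 17.1 RPKM, from 1603 and 794 reads, with a change of -0.42 ± 0.31 (SE; adjusted p = 0.277, limma). The groups overlapped, with stem-labelled replicate 2 close to the 2 highest other libraries.

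Hist1h1e, at chr13:23621755-23622502, was the 1 H1 gene that fell. It was 1.55, 1.37 and 0.415 RPKM in stem-labelled and 4.15, 6.55 and 4.65 RPKM in other clones, with a change of -1.56 ± 0.27 (SE; adjusted p = 0.00111, limma). Hist1h1d was 2.22, 2.88 and 0.501 against 1.13, 2.38 and 2.4 RPKM and Hist1h1b was 1.09, 2.0 and 0.293 against 0.903, 2.38 and 2.14 RPKM. Both overlapped, with stem-labelled replicate 3 the lowest library, and their changes were -0.13 ± 0.35 and -0.44 ± 0.33 (adjusted p = 0.774 and 0.278). After rescaling, Hist1h1c, Hist1h1d and Hist1h1b had positive changes of 0.45, 0.43 and 0.05 that did not pass. Hist1h1a had 0 and 5 reads.

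**Figure D2:**
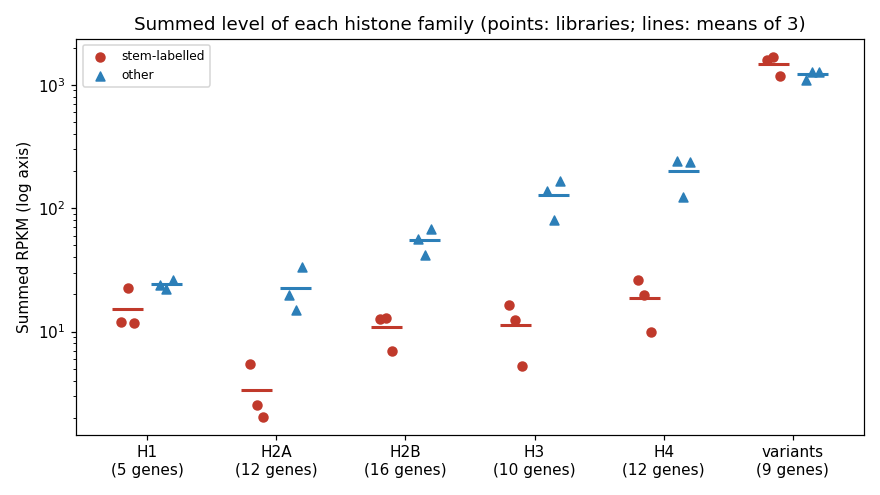
Summed RPKM of each histone family in every library, on a log axis, with points for libraries and lines for the means of 3. On these deposited values the means of H3 and H4 are more than 10-fold apart. H1 overlaps, and the variants lie above every clustered family in both groups.

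The variants, which sit at single loci and have polyadenylated messages, were far more abundant and did not share a direction. The filter kept 8 of the 9, of which 2 fell (H2afx and Cenpa) and 1 rose (H1f0), while 5 were not called. Of all tested genes, 25.4% fell and 29.9% rose, so the share of variants that fell was near that of all genes. The variants' median was -0.09, against 0.11 for all tested genes. After rescaling 1 fell (H2afx) and 6 rose, where 58.7% of all tested genes rose.

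H1f0 encodes H1.0, the linker histone of slowly dividing and differentiated cells, and it was the most abundant histone gene by group mean. In other replicate 3 it was below H2afz, with a ratio of 0.883. At chr15:79028212-79030498, H1f0 measured 817, 944 and 601 RPKM in stem-labelled and 339, 463 and 321 RPKM in other clones. All 3 stem-labelled libraries were higher, replicate 2 the most. The change was 1.06 ± 0.32 (SE; adjusted p = 0.0176, limma) on deposited values and 2.01 after rescaling. On deposited values the call was lost without stem-labelled replicate 1 (adjusted p = 0.0597), stem-labelled replicate 2 (0.0822), other replicate 1 (0.0521) or other replicate 3 (0.0598), at changes of 0.92 to 1.03. H1f0 made up 51.8, 56.0 and 50.6% of summed variant RPKM in stem-labelled clones and 31.0, 36.1 and 25.2% in other clones. Clustered H1 over H1f0 was 0.0146, 0.0237 and 0.0194 against 0.0701, 0.0479 and 0.0817, with no overlap. H1fx, the gene of H1.10, had 0 reads in stem-labelled clones and 7 in other clones, all in replicate 1.

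H2afx encodes H2AX, the variant phosphorylated at DNA breaks. It is the variant with a hairpin, printed above, and of the 8 tested variants it alone had a negative change under both scalings. At chr9:44334694-44336077, it measured 69.9, 45.4 and 34.2 RPKM in stem-labelled and 149.7, 160.5 and 196 RPKM in other clones, with stem-labelled replicate 3 lowest. Its change was -1.79 ± 0.30 (SE; adjusted p = 0.000979, limma), and -0.86 after rescaling (adjusted p = 0.015). Leaving out any 1 library kept the call. H2afz encodes H2A.Z, found at promoters, and H2afv encodes a close copy of it. H2afz was 301, 309.8 and 207 against 189.6, 203 and 364 RPKM and H2afv was 99.8, 94.8 and 61.9 against 61.6, 149.9 and 70.5 RPKM. Other replicate 3 was the high library of H2afz and other replicate 2 that of H2afv. Neither passed, with changes of 0.15 ± 0.33 and -0.05 ± 0.36 (adjusted p = 0.713 and 0.913). Of the 50-base stretches of the H2afz transcript, 1069 bases long against a counted model of 1776, 69.6% occur in another gene. H2afx over H2afz was 0.232, 0.146 and 0.165 in stem-labelled and 0.789, 0.790 and 0.538 in other clones.

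Cenpa encodes CENP-A, the H3 variant of centromeres. At chr5:30666777-30674830, it was 30.4, 27.3 and 23.9 RPKM in stem-labelled and 36.4, 46.1 and 45.7 RPKM in other clones, all 3 stem-labelled libraries being lower. Its change was -0.63 ± 0.22 (SE; adjusted p = 0.0319, limma). The call was lost when any 1 library other than other replicate 1 was left out (adjusted p = 0.0541 to 0.0916), and rescaling turned the change to 0.28 (adjusted p = 0.311). Cenpa over H3f3b was 0.135, 0.117 and 0.101 against 0.124, 0.203 and 0.187, and the groups overlapped. H2afy encodes macroH2A1, a large H2A of silent chromatin. It was 18.1, 14.3 and 13.4 against 10, 16.1 and 13.6 RPKM, with overlap and a change of 0.20 ± 0.23 (adjusted p = 0.480).

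**Figure D3:**
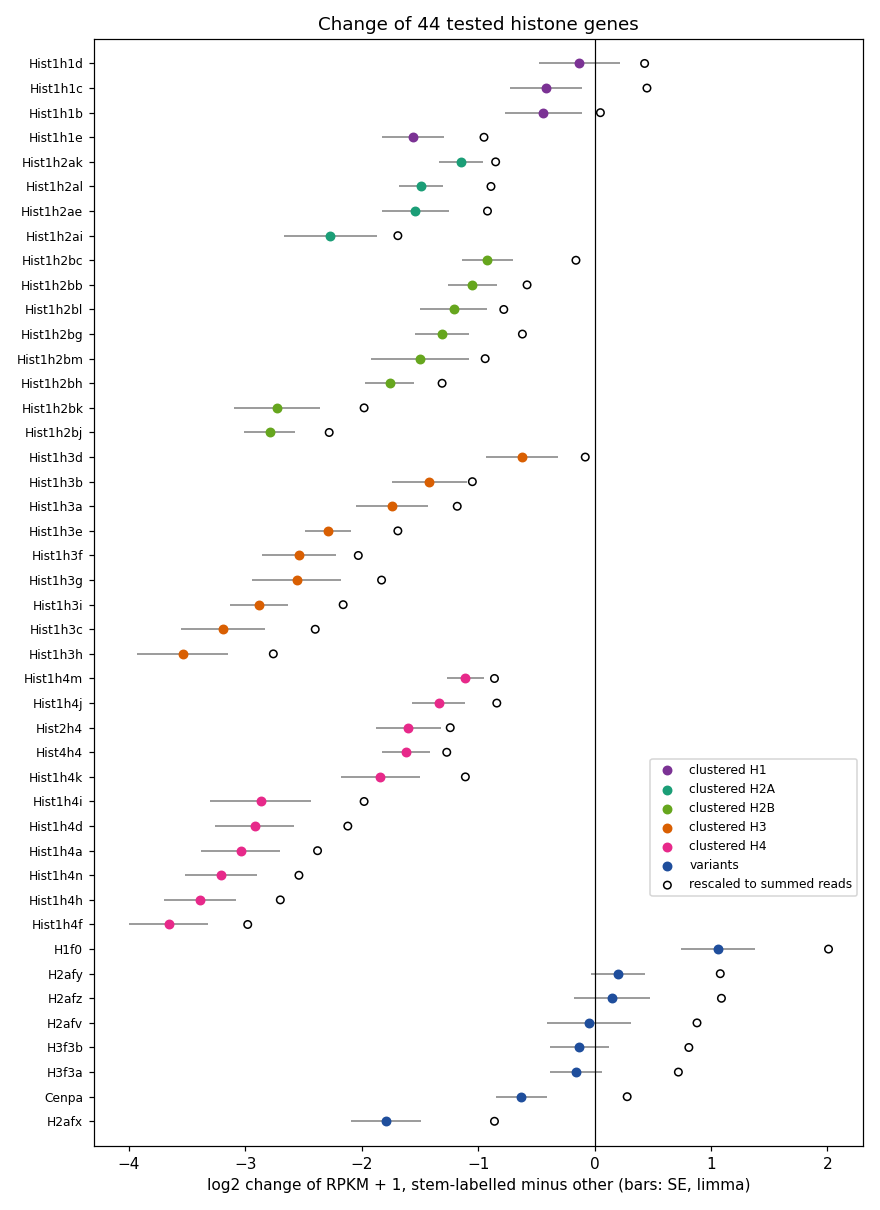
Log2 change of RPKM + 1, stem-labelled minus other, for the 44 tested histone genes, with filled points and SE bars for the deposited values and open circles for values rescaled to summed reads. Rescaling shifts every point to the right; H2A, H2B, H3 and H4 genes stay below 0, and 3 of the 4 H1 genes and all variants but H2afx lie above 0 after it.

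Gene length differed between the 2 sets. Clustered models had a median of 480 bases (312 to 4374) and variant models 2287 bases (1217 to 6809). The shortest decile of tested genes held 33 of the 36 tested clustered genes and 0 variants. Of the 33, 30 fell, where 61.1% of that decile fell and 5.25% rose, and their median was -1.76 against -1.17 for the decile. After rescaling, 40.2% of the decile fell and its median was -0.41. With the trend in length and GC content subtracted from each library, 17 of 34 clustered genes fell and 4 rose (Hist1h1b, Hist1h1d, Hist1h2bb and Hist1h4m), against 22.0% and 25.9% of all genes. By family, after this length and GC step, 9 of 11 H4 genes and 5 of 9 H3 genes fell, as did 2 of 6 H2B and 1 of 4 H1 genes, while the 4 H2A genes had adjusted p from 0.0787 to 0.548. Among those still lower were Hist1h4i (-1.86), Hist1h4f (-1.77), Hist1h3h (-1.77), Hist4h4 (-1.49) and Hist2h4 (-1.23). Of the variants, H2afx did not pass after the length and GC step (-0.32, adjusted p = 0.286), while Cenpa (-1.36) and H2afy (-0.63) fell and H1f0 rose (1.11). With the trend in length alone subtracted, 17 of 36 clustered genes fell and 3 rose, against 22.3% and 28.3% of all genes. In that fit 8 of 11 H4, 6 of 9 H3, 2 of 8 H2B, 1 of 4 H2A and 0 of 4 H1 genes fell. H2afx kept its call with length alone (-0.89, adjusted p = 0.0142), and H2afy did not pass (-0.27, adjusted p = 0.363). What part length has in the clustered genes' change was not tested.

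**Figure D4:**
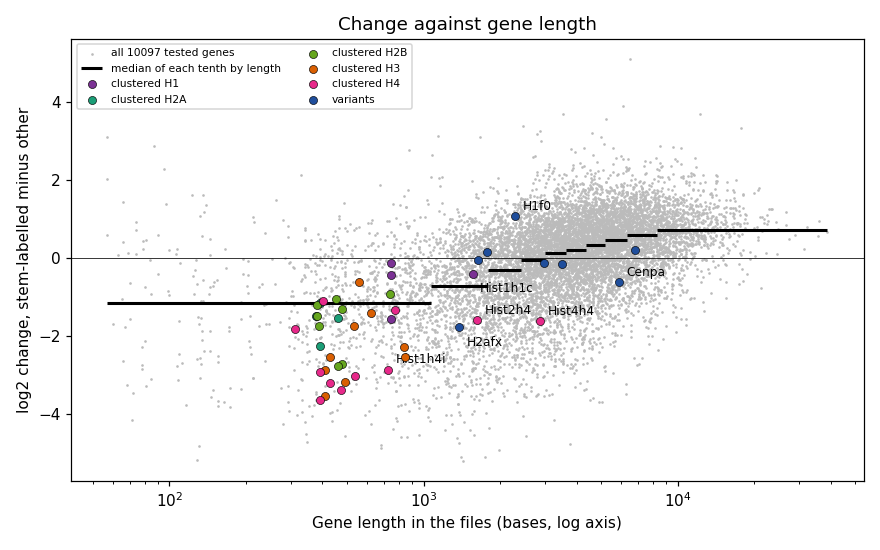
Log2 change against gene length in bases on a log axis, with all 10097 tested genes in grey, histone genes in colour and black bars for the median of each decile by length. The bars climb from -1.17 to 0.71; most clustered genes lie in the first decile and many fall below its bar, and Hist4h4 and Hist2h4 lie below the bars at greater lengths.

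Clustered genes resemble each other closely, which limits how single genes can be told apart. The share of a transcript's 50-base stretches found in another gene had a median of 49.5% and ran from 0 to 97.3%, and it was over 50% for 25 genes. How reads with several matches were counted is not given in the sources used here. These shares were computed on GENCODE M21 transcripts, and for 20 of the 53 clustered genes matched the transcript differed in length from the counted model, so that its share does not describe exactly what was counted. In the 33 with equal lengths the median was 63.5%, and 21 were over 50%. Of these 33, the tested genes with the least sharing were Hist1h1b (0%), Hist2h4 (1.01%), Hist4h4 (8.14%), Hist1h1c (8.54%), Hist1h4j (24.6%) and Hist1h4i (28.9%). The 4 H4 genes among them fell, and the 2 H1 genes did not pass. For Hist2h4, Hist4h4 and Hist1h4j, only the other clones reached 1 RPKM, so these had to differ to be tested.

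Of the H2A genes 9 of 12, and of the H2B genes 9 of 16, lie in head-to-head pairs that share a promoter region. There were 9 such pairs with 238 to 301 bases between the 2 starts. In the pair Hist1h2ah and Hist1h2bk, the H2A gene had 3 and 9 reads in stem-labelled and other clones and the H2B gene 76 and 296. In the pair Hist1h2ag and Hist1h2bj, the H2A gene had 3 and 0 reads and the H2B gene 13 and 128. Hist1h2bl and Hist1h2ai were nearer to each other, with 18 and 34 reads for the H2B gene and 26 and 101 for the H2A gene. Reads on the 2 sides of a shared promoter region were thus unequal in these pairs, and whether reads of one copy were placed on another was not tested. Other pairs were closer. Hist1h2ae had 44 and 78 reads and its partner Hist1h2bg 75 and 93. Hist1h2an had 2 and 28 reads and its partner Hist1h2bp 23 and 38, so these were near each other in the other clones only. In Hist2h2ac and Hist2h2be, the pair on chromosome 3, the H2A gene had 3 and 6 reads while Hist2h2be had 176 and 21.

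Promoter windows from RefSeq (GRCm38.p6, 250 bases before to 50 after the start) were matched to 57 of the 64 genes. Searched on both strands were the CCAAT box, the TATA box in the form TATAAA, and the octamer of H2B promoters, ATTTGCAT, and in 0 of the 57 windows did matches of 2 motifs share a base. CCAAT was found in 41 of 49 clustered promoters (83.7%) and in 37.4% of all 32851 windows. All H1, H2A, H2B and H3 windows held it, and 3 of 11 H4 windows did. TATAAA was in 29 of 49 (59.2%) against 13.6% of all. Its first match lay anywhere from base 1 (Hist1h4f) to base 292 (Hist1h4a) of the window, so not all matches sit where a TATA box would. The octamer was in 9 of 49, 5 of H2A and 4 of H2B, against 1.74% of all. Windows of head-to-head pairs overlap, so a match can count for both genes. The octamer did so for Hist1h2ah with Hist1h2bk and for Hist1h2ae with Hist1h2bg. Of the 8 variant windows, 5 held CCAAT, 1 held TATAAA and 1 held the octamer. The 2 sequences that follow are most of the region between Hist1h2ah and Hist1h2bk, as an octamer promoter, and the window of H1f0, the variant that rose, which held none of the 3 motifs. Capitals mark matches on either strand.
Hist1h2bk, chr13:22035571-22035870, plus strand: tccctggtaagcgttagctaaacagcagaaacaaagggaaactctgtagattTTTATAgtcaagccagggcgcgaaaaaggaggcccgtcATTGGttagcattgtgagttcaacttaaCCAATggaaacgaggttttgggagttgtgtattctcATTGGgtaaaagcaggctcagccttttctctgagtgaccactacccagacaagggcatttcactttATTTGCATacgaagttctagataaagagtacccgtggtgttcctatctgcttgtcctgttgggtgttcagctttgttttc
H1f0, chr15:79027962-79028261, plus strand: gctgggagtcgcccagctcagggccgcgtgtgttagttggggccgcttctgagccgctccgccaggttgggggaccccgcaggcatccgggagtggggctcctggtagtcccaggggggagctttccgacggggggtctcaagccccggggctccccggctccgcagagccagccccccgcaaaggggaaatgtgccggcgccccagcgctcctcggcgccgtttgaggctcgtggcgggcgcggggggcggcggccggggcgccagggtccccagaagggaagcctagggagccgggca
A match is a run of letters and was not tested as a site.

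Genes that make and end histone messages moved both ways. Of 16 listed genes for histone transcription and 3′ processing, 15 passed the filter, of which 3 rose and 2 fell while 10 were not called, where 29.9% of all tested genes rose and 25.4% fell. The median was 0.23, against 0.11 for all tested genes. Slbp, which encodes the hairpin-binding protein, was 11.5, 7.7 and 8.38 RPKM in stem-labelled and 7.77, 8.56 and 6.77 RPKM in other clones, with a change of 0.22 (adjusted p = 0.410, limma). Lsm11, a subunit of the U7 particle that cuts histone messages, was 5.21, 3.06 and 2.56 against 6.36, 9.21 and 10.5 RPKM and fell (-1.09 ± 0.27, adjusted p = 0.00719). E2f1, an activator of S-phase genes, was 35.9, 35.2 and 20.2 against 127, 93.7 and 72 RPKM and fell (-1.65 ± 0.31, adjusted p = 0.00170). Both had all stem-labelled libraries lower. Coil, which builds Cajal bodies, rose by 0.71 and Srrt by 0.68, and the call of Srrt was lost without stem-labelled replicate 1 or 3 (adjusted p = 0.0816 and 0.0558). Npat, the coactivator of clustered histone genes, was 0.888, 0.776 and 2.05 against 2.82, 1.59 and 2.16 RPKM and did not pass (adjusted p = 0.0966). After rescaling, 11 of the 15 rose and 1 fell (E2f1, -0.73), where 58.7% and 12.3% of all genes did, and Lsm11 did not pass (-0.30, adjusted p = 0.338). After the length and GC step, 2 of the 15 rose and 4 fell, with a median of -0.13, where 25.9% and 22.0% of all genes did. Coil (0.31) and Srrt (0.50) did not pass there, while Npat (-0.49, adjusted p = 0.0378) and Casp8ap2 (-0.53, adjusted p = 0.0233), which encodes a protein of the histone locus body, passed as lower. The 2 that rose in this fit were Lsm10 (1.75, adjusted p = 0.000413) and Ncbp2 (0.57, adjusted p = 0.0257). On deposited values Lsm10 was 14.8, 13.9 and 11.1 against 6.67, 11.4 and 7.90 RPKM and did not pass (0.58 ± 0.24, adjusted p = 0.0608). It passed as higher after rescaling (1.44, adjusted p = 0.000463).

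S-phase genes were likewise mixed. The test covered 27, with 5 higher, 6 lower and 16 not called and a median of 0.17, where 29.9% of all tested genes were higher and 25.4% lower. After rescaling 19 rose and 0 fell, where 58.7% and 12.3% of all genes did. After the length and GC step 1 rose, 6 fell and 20 were not called, against 25.9% and 22.0% of all genes. Cdk2, an S-phase kinase, and Pole, a replicative polymerase, rose by 0.80 and 0.75, and Rfc4, a clamp loader subunit, and Tk1, a thymidine kinase, fell by 1.42 and 1.03 on the log2 scale. Each of these 4 calls was lost in at least 1 of the fits that left out a library. After rescaling, Rfc4 (-0.52) and Tk1 (-0.10) did not pass, and the length and GC step turned Pole to -0.29. Pcna, the sliding clamp, was 163, 129.7 and 99.4 RPKM against 88.7, 82.9 and 127 RPKM and Rrm2, a ribonucleotide reductase subunit, was 75.1, 47.3 and 46.5 against 41.5, 51.6 and 41 RPKM. Their groups overlapped (adjusted p = 0.271 and 0.345).

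Histone chaperones and assembly factors moved both ways: of 25 that passed the filter, 10 rose and 4 fell, and 11 were not called, where 29.9% of all tested genes rose and 25.4% fell. Their median was 0.31. After rescaling 17 rose and 2 fell, where 58.7% and 12.3% of all genes did, and after the length and GC step 7 rose and 5 fell, against 25.9% and 22.0%. Ubn1, a partner of the H3.3 chaperone HIRA, was 8.47, 7.15 and 11.1 RPKM in stem-labelled and 0.975, 0.909 and 1.02 RPKM in other clones, a change of 2.31 ± 0.20 (SE; adjusted p = 0.000117, limma). The groups were far apart. Ino80, a remodeler that acts on H2A.Z nucleosomes, was 3.17, 2.88 and 3.91 against 0.999, 0.496 and 0.657 RPKM, a change of 1.33 ± 0.19. Lower levels were found for Npm1, a nucleolar histone chaperone, at 117, 146 and 155 against 679, 531 and 1221 RPKM (-2.45 ± 0.35, adjusted p = 0.000488). Ipo4, which carries H3 and H4 into the nucleus, was 20.1, 13.3 and 13.6 against 37.8, 44.6 and 35.2 RPKM (-1.29 ± 0.23, adjusted p = 0.00152). Rescaling ended the call of Ipo4 (-0.38, adjusted p = 0.207).

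H2afj, which encodes the H2A variant H2A.J, lies beside Hist4h4 on chromosome 6, at chr6:136808244-136810074. It was 3.87, 3.31 and 2.48 RPKM in stem-labelled and 32.9, 16.3 and 15.1 RPKM in other clones, with every stem-labelled library lower. Its change was -2.34 ± 0.30 (SE; adjusted p = 0.000310, limma), -1.53 after rescaling and -1.75 after the length and GC step. Of 9 further variant genes listed, 4 were in the tables and 2 were tested, H2afj and H3f3c. H3f3c was 1.28, 2.0 and 1.28 against 0.408, 1.17 and 0.967 RPKM and did not pass (0.46 ± 0.22, adjusted p = 0.102). It passed after rescaling (0.94, adjusted p = 0.00312) and after the length and GC step (1.45, adjusted p = 0.00117), in the same direction.

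**Figure D5:**
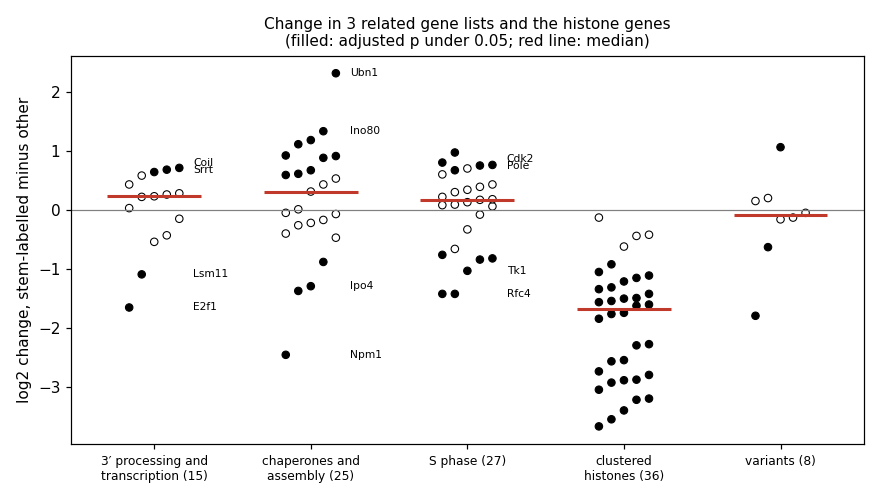
Log2 change, stem-labelled minus other, of tested genes in 3 lists and in the 2 histone sets, with filled points for an adjusted p under 0.05, names for up to 4 genes a list and red lines for medians. The 3 lists scatter around medians of 0.17 to 0.31, the 36 clustered genes lie below 0 around -1.68, and the 8 variants centre on -0.09.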

How the data were processed

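The deposited files give 1 RPKM value per gene and library, made by the authors, with a gene length and coordinates per the file headers. The submitters' processing notes name Bowtie2 2.0.6, TopHat2 2.0.9 and mm9 with no role for each, and the counting program is not given in the sources used here. Start and end equalled those of GENCODE M21 on GRCm38 for 80.14% of genes and for 43 of the 64 histone genes, so coordinates as deposited are read as GRCm38. Value times length gave whole reads for 100% of positive values (tolerance 0.01). One read in 1 kilobase was worth 0.0311 to 0.0993 RPKM. The depths are in the report.

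The comparison used limma 3.58.1 (R 4.3.3) with a variance trend on log2(RPKM + 1), over genes that reached 1 RPKM in 3 or more of the 6 libraries, two-sided, with Benjamini-Hochberg adjustment over all 10097. Calls are at an adjusted p under 0.05, and changes of low genes are understated by the pseudocount of 1. Python 3.11.15 made the tables. The test was checked on simulated data. The alternatives were a replicate block, leaving out each library, 2 other scalings, 2 other filters, a pseudocount of 0.1, other variance models, corrections for length and for length with GC content (splines of 5 degrees of freedom, GC from the longest GENCODE M21 transcript), limma-voom on the recovered reads, and a threshold of 0.01. Dropping the filter together with rescaling was added after seeing the data. The histone genes, the related lists and the alternatives were chosen with earlier results of these data known. Named were all 9 variants, every clustered gene that passed the filter and up to 6 others with the most reads. So were up to 4 tested genes with the smallest p in each list. Slbp, Npat, Lsm10, Ncbp2, Pcna, Rrm2, Casp8ap2, H3f3c, Epcam and further low clustered genes were named outside that rule. Matches of the stem-loop pattern and promoter motifs are exact.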

Additional observations from a re-analysis of the deposited data

How the results depend on the processing

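Replicate numbers were not shown to pair the libraries: same-numbered stem-labelled and other libraries had correlations of their deviations of -0.125, 0.026 and -0.085. With the number as a replicate block, 2735 genes rose and 2477 fell, 32 clustered genes fell, 1 variant fell and 1 rose, Cenpa (adjusted p = 0.0694) being the call lost. Leaving out 1 library at a time gave 2539 to 3027 genes up and 2184 to 2528 down, 31 to 33 clustered genes down and 0 up, 1 to 2 variants down and 0 to 1 up, and a difference between the median changes of clustered and variant genes of -1.65 to -1.58 (-1.59 with all libraries). In these fits the sign turned for H2afz without other replicate 1 (-0.02), for H2afv without other replicate 2 (0.34) or stem-labelled replicate 3 (0.16), and for Hist1h1d without stem-labelled replicate 3 (0.28, against -0.40 at the other end of its range).

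Rescaling to summed reads gave 5926 genes up and 1245 down, 6 variants up and 1 down, and a difference of medians of -2.05. With no filter as well, 6687 genes rose and 1157 fell, 1 clustered gene rose, and 5 variants rose and 1 fell. Rescaled changes turned to 0.81 for H3f3b, 0.28 for Cenpa, 0.45 for Hist1h1c, 0.88 for H2afv, 0.43 for Hist1h1d, 0.05 for Hist1h1b and 0.72 for H3f3a, with and without the filter. Upper-quartile scaling left 1 variant down and turned H3f3b (0.13), H2afv (0.21), Hist1h1d (0.03) and H3f3a (0.09). No filter alone gave 1 clustered gene up. A mean RPKM of at least 5 gave 1405 genes up, 12 clustered genes down, from fewer genes tested, and a difference of -2.83. A pseudocount of 0.1 gave -3.06 and limma-voom -3.22. At a threshold of 0.01, 1 variant fell and 0 rose.

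Subtracting the length trend left 17 clustered genes down and 3 up, 2 variants up and a difference of -0.32. It turned H2afy (-0.27), Hist1h2bc (0.35), Hist1h1c (0.38), H2afv (0.70), Hist1h1d (1.14), Hist1h2bg (0.06), Hist1h1b (0.83), Hist1h2ak (0.23), Hist1h4m (0.27), Hist1h2bb (0.32), Hist1h2bl (0.17) and Hist1h3d (0.73). With GC content too, 17 clustered genes fell and 4 rose and the difference was -0.60. With the block added, 16 fell and 5 rose, 1 variant fell and the difference was -0.60. Both turned H2afy (-0.63), H3f3b (0.01), Hist1h2bc (0.14), Hist1h1c (0.40), H2afv (0.41), Hist1h1d (1.67), Hist1h1b (0.92), Hist1h2ak (0.53), Hist1h4k (0.03), Hist1h3a (0.15), Hist1h3b (0.38), Hist1h4m (0.80), Hist1h2bb (0.53), Hist1h2al (0.17), Hist1h2bl (0.72), Hist1h3d (0.33) and Pole (-0.29). The cause of these shifts was not tested. With 3 libraries a group, an exact permutation test of a single value could not go below p = 0.1. Many clustered genes rest on under 100 reads in a group, so single-gene sizes are imprecise while the family sums rest on more.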
